A study of Mus musculus with 12 samples.

Results

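The subject is the set of nuclear genes for subunits of the mitochondrial respiratory chain and ATP synthase, read from RNA sequencing of fetal liver and fibroblasts that carry the G2A allele of the proteasome gene Psmc1. Members were chosen by gene symbol alone, as genes named Nduf (complex I), Sdh (complex II), Uqcr (complex III), Cox4 to Cox8 (complex IV) or Atp5 (complex V, the ATP synthase). The rule found 85 of 23235 genes listed for liver and 84 of 24421 listed for fibroblasts, with 37 in complex I, 4 in complex II, 8 in complex III, 19 in complex IV (18 in fibroblasts) and 17 in complex V. After a filter on low values, 82 members could be tested in liver and 76 in fibroblasts. The 3 left out in liver were Cox7b2, Cox8b and Cox8c. The 8 left out in fibroblasts were Cox4i2, Cox6b2, Cox7a1, Cox7b2, Cox8b, Cox8c, Ndufa4l2 and Ndufs5. Cox4nb is listed for liver alone.

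The groups were homozygous G2A livers (genotype label Rpt2G2A/G2A) and their WT littermates at E12.5, in mid-gestation, and immortalized mouse embryonic fibroblasts (MEFs), G2A and WT, all without treatment. The liver values covered 3 G2A and 3 WT livers, and the MEF values 2 G2A and 3 WT libraries. The third G2A MEF sample was not analysed here. Psmc1 encodes Rpt2, an ATPase of the regulatory particle of the 26S proteasome, and the allele replaces with alanine the glycine that carries the N-myristoyl anchor of the protein. Nothing in the labels says how the MEFs were immortalized or whether the MEF libraries came from separate lines or cultures, so a p-value there measures the spread between these libraries, which may be technical.

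As background, complexes I and II pass electrons from NADH and succinate to ubiquinone, complex III passes them to cytochrome c, complex IV passes them to oxygen, and the ATP synthase uses the proton gradient that complexes I, III and IV build. Most subunits are encoded in the nucleus and meet partners encoded in the mitochondrial genome in a fixed ratio. Several nuclear subunits have paralogs that are used in muscle, lung or testis, or under low oxygen. The symbol rule also takes some genes that are not subunits of the chain: Cox4nb (now Emc8) belongs to a membrane complex of the endoplasmic reticulum, Atp5s and Atp5sl are now named Dmac2l and Dmac2, and Cox7a2l is best known for joining complexes III and IV. It leaves out Cyc1, Ndufab1, Usmg5, 2010107E04Rik and Atpif1, which are given with the context genes. No mitochondrially encoded subunit was listed in either table, so the other genome's share of the chain was not measured here.

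Levels are FPKM in liver, with column totals of 792987 to 840762 FPKM and unknown read depth. In MEFs they are reads divided by 1 size factor per library (normalized reads), from 36415600 to 37695100 gene reads per library. Psmc1 itself was at 151, 145 and 161 FPKM in G2A livers and 178, 181 and 178 FPKM in WT livers, and at 10658 and 10913 normalized reads in G2A MEFs against 7393, 8589 and 6485 in WT MEFs. A substitution of this kind is not visible in a gene's level, so this checks no label. One library of each tissue did not sit with its group. G2A liver 3 scored 7.91 on principal component 1 (37.9% of the variance), against -30.6 and -34.9 for G2A livers 1 and 2 and 13.3 to 23.3 for the WT livers. WT MEF library 3 lay at -72.5 on component 1 of the MEFs (73.4% of the variance), beside the G2A libraries at -51.5 and -55.2 and away from WT libraries 1 and 2 at 87.2 and 92.0. Call counts of the members, and their medians within each tissue, are given with and without these libraries. Counts without overlap, and the medians and direction counts of the difference between tissues, rest on all libraries. Fetal liver at this age is a blood-forming organ. Hepatoblast markers, among them Alb (2480 to 4150 FPKM in G2A livers, 3093 to 3863 FPKM in WT livers), and erythroid markers such as Alas2 were present in every liver, and Col1a1 (147435 and 147919 normalized reads in G2A MEFs, 251319 to 367214 in WT MEFs) in every MEF library.

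The first comparison asked how the subunit mRNAs of G2A livers stood against those of WT livers. Most were lower, by a small amount: 71 of the 82 members tested had a log2 fold change below 0, with a median of -0.17, or -11.4%, where the median over all 12938 genes tested was 0.01. Medians by complex were -0.18 for complex I (32 of 37 below 0), -0.18 for complex II (4 of 4), -0.25 for complex III (8 of 8) and -0.19 for complex V (16 of 17). Complex IV had a median of -0.12 (11 of 16 below 0), and its direction was the one that flipped under quantile normalization, to 0.01 with 6 of 16 below 0. No member passed limma's test at an adjusted p under 0.05 in either direction, against 0.0232% of all genes. At an unadjusted p under 0.05, 44 members were lower and 3 were higher, where 12.4% of all genes were lower and 9.07% higher. All 3 G2A livers lay below all 3 WT livers for 53 members (64.6%), against 15.7% of all genes, and above them for 4 members (4.88%), against 11.8%.

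Genes above a low bound of the members' levels were also mostly lower in G2A livers, with a median between that of the members and that of all genes. Among the 3775 genes tested whose mean level was at or above the 10th percentile of the members' mean levels, the median log2 fold change was -0.10 and 32.9% lay below every WT liver. This set includes members and was not matched to their levels, so it does not separate the members' shift from one shared by equally abundant genes. Quantile normalization, which gives each library the same distribution of values, brought the members' median to -0.06 and the number below every WT liver to 28, against 13.9% of all genes. The members took 2.17%, 1.96% and 2.27% of the summed FPKM of G2A livers 1, 2 and 3, and 2.48%, 2.44% and 2.38% in WT livers 1, 2 and 3. In these totals the groups did not overlap, and G2A liver 2 was lowest.

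**Figure D1:**
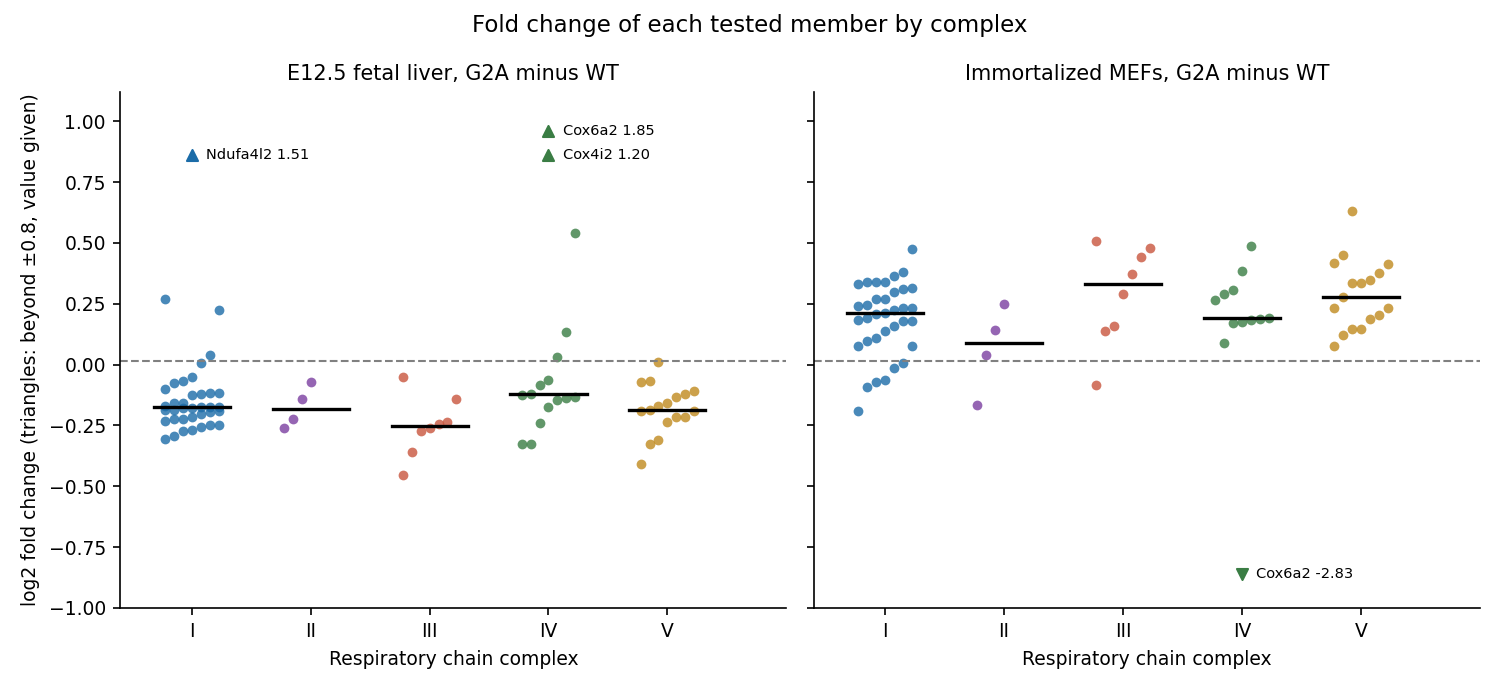
Log2 fold change, G2A minus WT, of each tested member (points) by complex in liver (left) and MEFs (right); black bars are complex medians, the dashed line is the median of all genes tested, and triangles mark members beyond 0.8 in size with their value. Liver medians lie from -0.25 to -0.12 and MEF medians from 0.09 to 0.33, with complex IV in liver at 0.01 under quantile normalization.

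Leaving out G2A liver 3 changed the calls. Without it 28 members were lower and 4 higher at an adjusted p under 0.05 by limma, against 12% of all genes lower and 12.4% higher. The 28 comprised 12 of complex I, 1 of complex II (Sdhd), 6 of complex III, 3 of complex IV (Cox5a, Cox5b and Cox7a2) and 6 of complex V. The 4 were Cox4i2, Ndufa4l2, Cox7a2l and Ndufv3. Leaving out each of the other 5 livers gave no call among the members, and the median log2 fold change lay between -0.19 and -0.14 over all 6 omissions. The share of all genes called in those 5 fits is not given here, so their lack of calls is no result about the members.

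Of the cell type markers, the erythroid sum was low in G2A livers 1 and 2. The fibroblast and mesenchyme sum was higher in every G2A liver than in any WT liver. Of the 10 erythroid markers 7 were listed, and they summed to 1633, 1398 and 2701 FPKM in G2A livers 1, 2 and 3, against 2577, 2084 and 2968 FPKM in WT livers 1, 2 and 3. All 8 fibroblast and mesenchyme markers were listed and summed to 1370.2, 1988 and 977 FPKM in G2A livers against 625, 440.2 and 654 FPKM in WT livers. No marker on either list was at 0 in all livers. Other lists overlapped between the groups. Hepatoblast markers summed to 11090, 10826 and 15554 FPKM in G2A livers and 10883, 11851 and 13488 FPKM in WT livers. Endothelial markers summed to 87.0, 88.9 and 72.3 FPKM in G2A livers and 73.6, 64.3 and 64.6 FPKM in WT livers. Macrophage markers summed to 55.1, 51.3 and 51.2 FPKM in G2A livers and 50.5, 41.6 and 51.6 FPKM in WT livers. Fewer cells of a type and less RNA per cell cannot be told apart in bulk tissue, and the part of cell makeup in the subunit values was not tested. The summed FPKM of the members was 89.5%, 84.2% and 92.1% of the WT mean in G2A livers 1, 2 and 3. In WT livers 1, 2 and 3 it was 100.5%, 100.3% and 99.2%.

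Within complex I, whose peripheral arm holds the NADH-oxidising flavoprotein and a chain of iron-sulfur clusters, the core subunits Ndufv1, Ndufv2, Ndufs1, Ndufs3, Ndufs7 and Ndufs8 of that arm were each lower in every G2A liver than in any WT liver. Ndufv2, an iron-sulfur subunit beside the flavin site, was at 80.5, 80.5 and 79.2 FPKM in G2A livers 1, 2 and 3, against 97.1, 94.3 and 94.4 FPKM in WT livers 1, 2 and 3. The groups did not overlap, with a log2 fold change of -0.25 (SE 0.04, limma adjusted p = 0.0902), which did not pass the threshold. Its partner Ndufv1, which binds NADH and flavin mononucleotide, was at 72.7, 73.7 and 75.3 FPKM in G2A livers and 84.3, 86.6 and 87.4 FPKM in WT livers, again without overlap. Ndufs8, which carries a pair of iron-sulfur clusters on the path to ubiquinone, had the lowest log2 fold change of complex I at -0.30 (68.3 ± 5.68 FPKM in G2A livers and 84.5 ± 2.77 FPKM in WT livers, SD, n = 3 each). Ndufb10, an accessory subunit of the membrane arm, was at 170.2 ± 8.21 FPKM in G2A livers and 206 ± 8.21 FPKM in WT livers.

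Ndufv3, a small accessory subunit of the NADH-oxidising module, went the other way. It was at 151, 148 and 147 FPKM in G2A livers and 128, 126 and 127 FPKM in WT livers, so that each G2A liver lay above every WT liver (log2 fold change 0.22, SE 0.04, adjusted p = 0.0953). Ndufs5 was listed near 0 in G2A liver 1 and WT liver 2, at 2.38 to 4.94 FPKM in the other livers, and at 0 in all MEF libraries. Since its neighbours in the complex were abundant in the same libraries, it is given as listed and no level is drawn from it.

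Complex II, which is also an enzyme of the tricarboxylic acid cycle, has no mitochondrially encoded subunit. Sdhd, one of its membrane anchors, was at 112, 104 and 122 FPKM in G2A livers and 127, 143 and 135 FPKM in WT livers (log2 fold change -0.26, SE 0.08, adjusted p = 0.141). Sdhb, the iron-sulfur subunit, was at 125, 114 and 107 FPKM in G2A livers and 130.0, 144 and 131 FPKM in WT livers (log2 fold change -0.22, adjusted p = 0.175). Both were without overlap, as was Sdha, the flavoprotein, while Sdhc, the other anchor, overlapped.

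Complex III had the lowest median, and 2 of its small subunits, Uqcr10 and Uqcr11, had its lowest fold changes. Uqcr10 was at 299, 269.6 and 322 FPKM in G2A livers against 413, 397 and 408 FPKM in WT livers. The highest G2A liver thus lay well below the lowest WT liver, and the log2 fold change of -0.45 (SE 0.07, 95% interval -0.63 to -0.27, adjusted p = 0.0902) was the lowest of the 82 members. Uqcr11 was at 239.7, 222 and 266 FPKM in G2A livers against 314, 307 and 310.3 FPKM in WT livers (log2 fold change -0.36, adjusted p = 0.101). Uqcrb, Uqcrq, the core protein Uqcrc1 and the Rieske iron-sulfur protein Uqcrfs1 lay between -0.27 and -0.23, and Uqcrh, the hinge protein, overlapped between groups at -0.05.

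In complex IV the common subunits were lower and some paralogs were higher. Cox5a was at 197, 179 and 206 FPKM in G2A livers and 233, 252 and 243 FPKM in WT livers (log2 fold change -0.32, SE 0.07, adjusted p = 0.101). In the mm9 annotation 38.7% of its exon bases overlap Gm17596 on the other strand, and whether counting used strand is not given in the sources used here. Cox7a2 (-0.33) and Cox5b (-0.24) did not overlap between groups either. The most abundant subunits, Cox6a1 and Cox7c, were at 659 ± 56.7 and 652 ± 34.3 FPKM in G2A livers and 722 ± 24.9 and 720 ± 11.6 FPKM in WT livers (SD, n = 3 each). Cox6a1 overlapped between groups, and Cox7c did not.

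Complex V was lower in both its soluble F1 part and its membrane part. Atp5b, the catalytic beta subunit and the member with the highest FPKM, was at 917, 892 and 1045 FPKM in G2A livers and 1069.6, 1123 and 1114 FPKM in WT livers (log2 fold change -0.22, adjusted p = 0.188). Atp5k, the membrane subunit e, was at 94.0, 100.6 and 99.98 FPKM in G2A livers and 143, 111 and 141 FPKM in WT livers (log2 fold change -0.41, adjusted p = 0.125). The F1 subunits Atp5a1, Atp5c1 and Atp5d lay between -0.19 and -0.17, all 3 without overlap, and Atp5e, the smallest F1 subunit, overlapped at -0.07.

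The ring of subunit c in the ATP synthase is made from one mature protein that 3 genes encode, Atp5g1, Atp5g2 and Atp5g3. Atp5g3 was at 429, 381 and 429 FPKM in G2A livers and 524, 512 and 518 FPKM in WT livers (log2 fold change -0.33, SE 0.06, adjusted p = 0.0959). Atp5g1 was at 272, 253 and 304 FPKM in G2A livers and 333, 343 and 350.2 FPKM in WT livers (-0.31, adjusted p = 0.12). Atp5g2 was at 449.8 ± 20.6 FPKM in G2A livers and 471 ± 6.85 FPKM in WT livers, a log2 fold change of -0.07. Of the summed FPKM of the 3 genes, Atp5g2 made 39.5% ± 2.73 in G2A livers and 35.4% ± 0.146 in WT livers.

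Of the complex IV members 5 were above 0 in liver: Cox4i2, Cox6a2 and Cox7a1 at low levels, and Cox7a2l and Cox6b2 at 185 and 108 FPKM on average in G2A livers and 167 and 103 FPKM in WT livers. Cox4i2, a paralog of Cox4i1 known from lung and from cells in low oxygen, was at 7.80, 6.14 and 5.31 FPKM in G2A livers against 1.90, 1.96 and 2.77 FPKM in WT livers. Every G2A liver lay above every WT liver, and on the log2(FPKM + 1) scale the change was 1.20 (SE 0.17, adjusted p = 0.0902), 2.30-fold. Ndufa4l2, a hypoxia-inducible paralog of Ndufa4, was at 32.8, 41.1 and 30.9 FPKM in G2A livers against 11.4, 15.6 and 8.57 FPKM in WT livers, a log2 fold change of 1.51 (SE 0.21, adjusted p = 0.0902). The common forms lay below the WT livers in all G2A livers. Ndufa4, which was first counted in complex I and later placed in complex IV, was at 443 ± 26.3 FPKM in G2A livers and 507 ± 22.3 FPKM in WT livers, and Cox4i1 at 529 ± 24.2 and 577 ± 18.4 FPKM in G2A and WT livers (SD, n = 3 each).

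As shares of the summed FPKM of both paralogs, Cox4i2 made 1.19% ± 0.183 in G2A livers and 0.382% ± 0.0814 in WT livers, and Ndufa4l2 made 7.34% ± 1.39 in G2A livers and 2.29% ± 0.706 in WT livers (SD, n = 3 each). Cox7a2l made 56.6% ± 4.82 of the Cox7a genes in G2A livers and 49.4% ± 0.866 in WT livers. By the exact two-sided permutation test these shares had p = 0.1, the smallest that 3 against 3 allows, and 0.18 after Benjamini-Hochberg adjustment over the 18 shares of 8 subunits compared. Cox6b2, the testis paralog of Cox6b1, took 18.5% ± 3.499 of that pair in G2A livers and 16.4% ± 1.43 in WT livers and overlapped (exact p = 0.5). Pdk1, a gene known to be induced by low oxygen, was named from the pyruvate dehydrogenase list by its small p. It was at 34.6 ± 2.003 FPKM in G2A livers and 25.6 ± 4.79 FPKM in WT livers, without overlap (limma adjusted p = 0.1504). Whether low oxygen had a part in any of these values was not tested.

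The muscle paralogs were high in 1 liver. Cox6a2 was at 20.04, 2.31 and 1.56 FPKM in G2A livers 1, 2 and 3 and 1.03, 0.250 and 0.510 FPKM in WT livers, and Cox7a1 at 15.3, 2.51 and 3.27 FPKM in G2A livers and 2.89, 3.85 and 3.21 FPKM in WT livers. Cox8b was listed at 1.07 FPKM in G2A liver 1 and at 0 in the other 5 livers. The 7 skeletal or heart muscle markers summed to 323 FPKM in G2A liver 1, 9.97 and 24.7 FPKM in G2A livers 2 and 3, and 9.39 to 41.0 FPKM in WT livers, led by Actc1 (232 FPKM) and Tnnt2 (70.7 FPKM) in G2A liver 1. None of the 7 was at 0 in all livers, and their part in these values was not tested. Without G2A liver 1 the complex IV median was -0.13 with 12 of 16 below 0. For Cox4i2 that liver was also the highest, at 7.80 FPKM, but G2A livers 2 and 3 also lay above every WT liver.

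**Figure D2:**
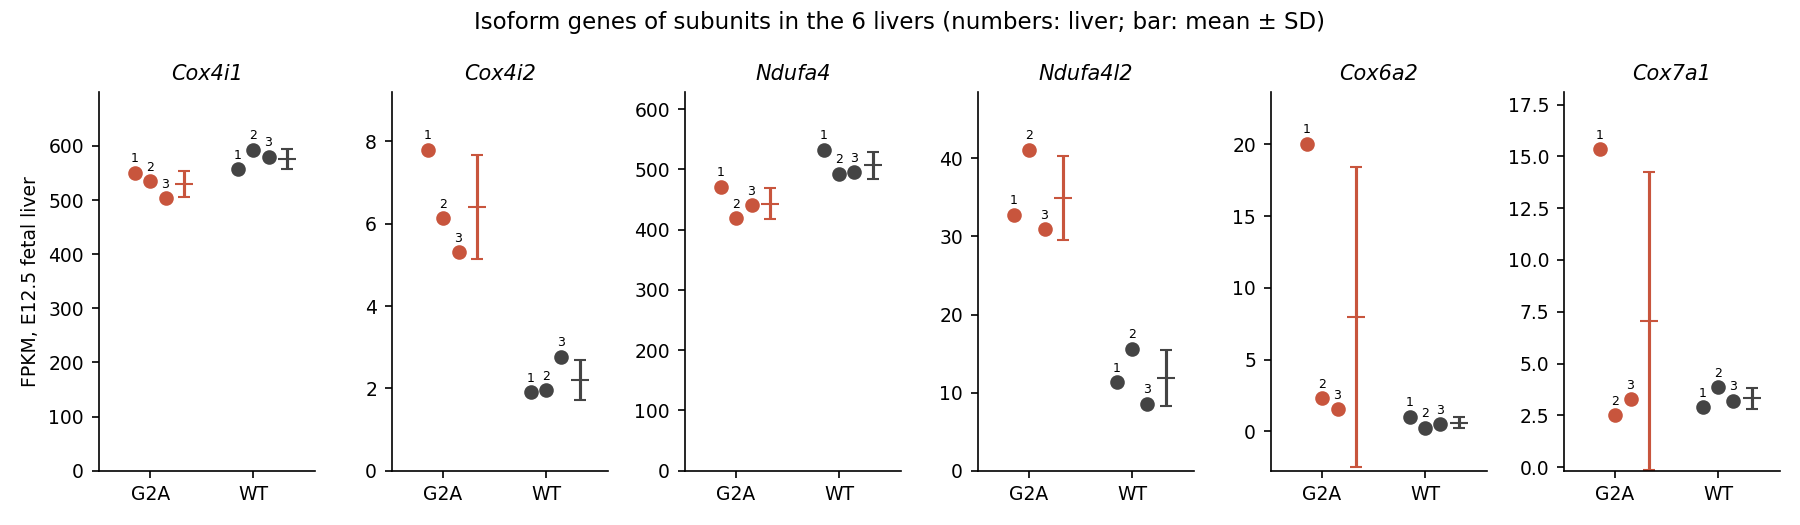
FPKM of 6 isoform genes in each liver (points numbered by liver; G2A left, WT right; the bar beside them is the mean ± SD, n = 3). Cox4i2 and Ndufa4l2 are higher in every G2A liver than in any WT liver, whereas Cox6a2 (20.04 FPKM) and Cox7a1 (15.3 FPKM) stand out in G2A liver 1.

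The second comparison set G2A MEFs against WT MEFs, and there the members lay on the other side of 0. Of 76 members tested, 68 had a log2 fold change above 0, with a median of 0.23, or 17.2%, where the median of all 13241 genes tested was 0.01. Medians were 0.21 for complex I (30 of 35 above 0), 0.09 for complex II (3 of 4), 0.33 for complex III (7 of 8), 0.19 for complex IV (11 of 12) and 0.28 for complex V (17 of 17). These directions held under median-ratio scaling and quantile normalization, but without WT MEF library 3 the complex II median was -0.02 with 2 of 4 below 0. Without that library complexes I, III, IV and V had medians of 0.19, 0.25, 0.17 and 0.22. The 6741 genes at or above the 10th percentile of the members' mean levels had a median of 0.02. No member passed limma's test at an adjusted p under 0.05, nor did any other gene (0%). The quasi-likelihood test of edgeR on the recovered reads called no member, and its share of all genes is not given here. At an unadjusted p under 0.05 by limma, 19 members were higher, against 6.9% of all genes, and 1 was lower, against 7.48%. Both G2A libraries lay above all 3 WT libraries for 51 members (67.1%), against 18.9% of all genes, and below them for 2, Sdhc and Cox6a2 (2.63%), against 18%.

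DESeq2 on the same reads called 10 members higher, against 2.95% of all genes, and Cox6a2 lower, against 4.86%. The 10 were Ndufa10, Ndufa11, Ndufv1, Uqcrc1, Uqcrh, Cox6a1, Cox7b, Cox8a, Atp5j2 and Atp5l. Without WT MEF library 3, limma called 12 of the 76 members higher, a share little above the 11.7% of all genes. It called 2 of the 76 lower, Cox6a2 and Uqcrb, against 11.5% of all genes. The 12 were Ndufa2, Ndufa7, Ndufa11, Ndufv1, Uqcr10, Uqcrh, Uqcrq, Cox6a1, Cox8a, Atp5e, Atp5h and Atp5j2. The members' median was 0.18 without that library and between 0.22 and 0.25 without each of the other 4, and no member was called without any one of those 4.

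**Figure D3:**
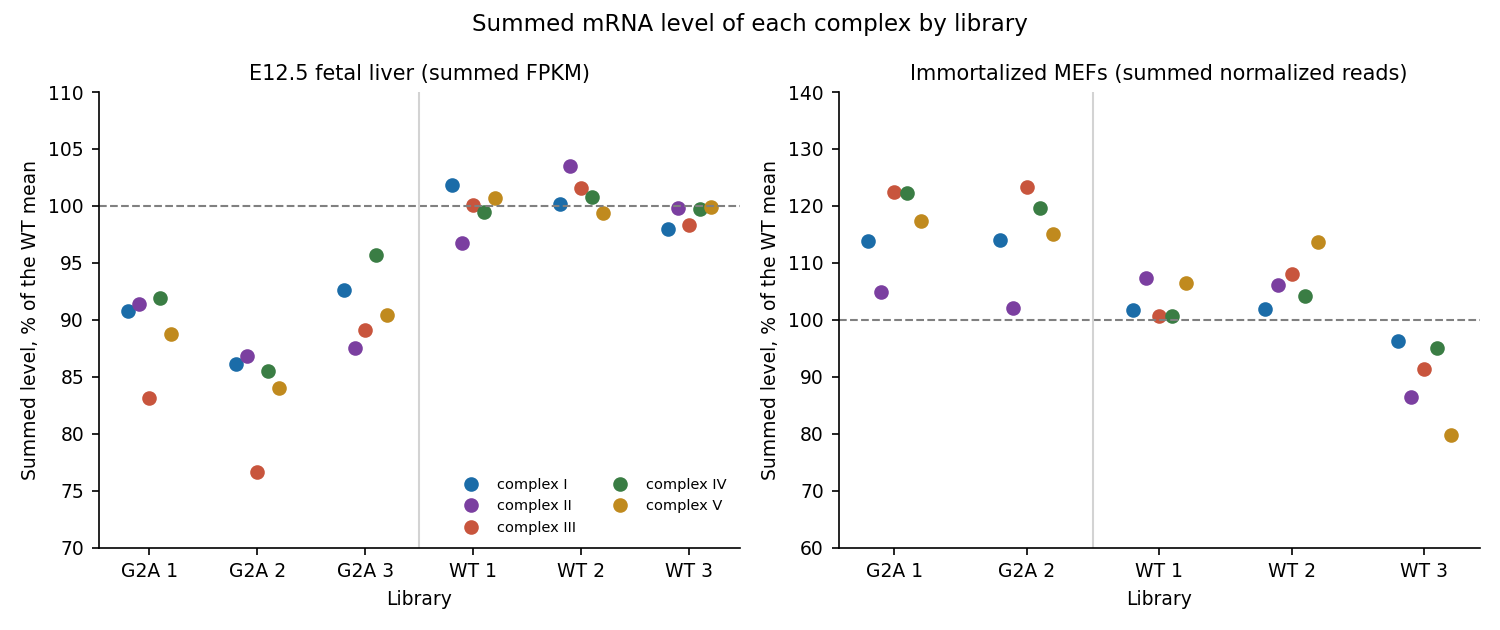
Summed level of the genes of each complex in every library, as a percent of the WT mean of the same tissue (points coloured by complex; dashed line at 100). In liver all complexes of the G2A libraries lie between 76.7% and 95.7%; in MEFs they lie between 102.1% and 123.3% in G2A and between 79.8% and 113.7% in WT, where library 3 is lowest.

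In complex V all 17 members were above 0 in MEFs, though much of its summed level sat in 1 gene. Atp5b was at 91857 and 87942 normalized reads in G2A MEFs and 89542, 97127 and 56752 in WT MEFs, so that both G2A libraries lay within the WT range, and without WT library 3 its log2 fold change was -0.05. Atp5j2, the membrane subunit f, was at 6541 and 6724 normalized reads in G2A MEFs against 4817, 4952 and 4803 in WT MEFs, a log2 fold change of 0.45 (SE 0.09, limma adjusted p = 0.269). Atp5h, subunit d of the peripheral stalk, was at 4146 and 4065 normalized reads in G2A MEFs against 3143, 2799 and 3603 in WT MEFs (0.38, adjusted p = 0.329). Neither overlapped between groups. Atp5e had the highest fold change of the members, 0.63, with 1398 and 1534 normalized reads in G2A MEFs and 785, 799.6 and 1346 in WT MEFs, where WT library 3 lay close to the G2A libraries.

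In complex III the hinge protein gene Uqcrh was at 3229.6 and 3152 normalized reads in G2A MEFs against 2416, 2227 and 2106 in WT MEFs (log2 fold change 0.51, SE 0.11, adjusted p = 0.269). The core protein gene Uqcrc1 was at 10741 and 10861 normalized reads in G2A MEFs against 7532, 9117 and 7315 in WT MEFs (0.44, SE 0.14, adjusted p = 0.300). Both lay above all WT libraries. Uqcrb was the member of the complex below 0, and its 2663 and 2481 normalized reads in G2A MEFs lay inside a wide WT range of 3313, 3471 and 1755.

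Complex I and complex IV were also mostly above 0 in MEFs. Ndufa11, an accessory subunit of the membrane arm, was at 2524 and 2534 normalized reads in G2A MEFs against 1799, 1841 and 1817 in WT MEFs, a log2 fold change of 0.48 (SE 0.10, adjusted p = 0.269). Ndufa10, another membrane-arm subunit, was at 4376 and 4151 normalized reads in G2A MEFs against 3425, 3476 and 3202 in WT MEFs (0.34, adjusted p = 0.291). Cox8a, the common form of the smallest complex IV subunit, was at 10103 and 9351 normalized reads in G2A MEFs against 6873, 7501 and 6451 in WT MEFs (0.49, adjusted p = 0.269). Complex II was divided. Sdhd was at 3525 and 3652 normalized reads in G2A MEFs and 3230.3, 3238 and 2629 in WT MEFs (0.25, adjusted p = 0.438), and Sdhc at 3412 and 3187 in G2A MEFs and 4041, 3634 and 3456 in WT MEFs (-0.17, adjusted p = 0.526), both without overlap, while Sdha and Sdhb overlapped.

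Cox6a2 was the exception in size. This muscle paralog had 4 and 4 reads in G2A MEFs against 39, 25 and 40 reads in WT MEFs, which are 3.94 and 3.92 normalized reads against 40.2, 26.1 and 37.6. The log2 fold change on the log2(normalized reads + 1) scale was -2.83 (SE 0.56, 95% interval -4.25 to -1.41, adjusted p = 0.269), and at so few reads it depends on the pseudocount. In the annotation a fraction of 0.1 of its exon bases overlap Itgad on the other strand. The 7 muscle markers summed to 678 and 661 normalized reads in G2A MEFs and to 1423, 1827 and 601 in WT MEFs. Most of each sum came from Acta1. Tnnt2, on the same list, was higher in both G2A libraries. It was at 65.1 and 98.0 normalized reads in G2A MEFs against 4.12, 30.3 and 35.7 in WT MEFs. Myod1 and Ckm were at 0 in all 5 libraries. Whether muscle-like cells had a part in the Cox6a2 values was not tested. The other tissue paralogs were at the floor of the MEF values: Cox4i2 had 0 to 2 reads and Cox7a1 4 to 9 reads per library.

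The third comparison asked for each member whether the G2A effect differed between liver and MEFs, as the log2 fold change in liver minus that in MEFs. Of the 76 members tested in both tissues, 72 had a difference below 0, with a median of -0.41, where the median of all 10818 genes was -0.02. By complex the medians were -0.34 for I (33 of 35 below 0), -0.27 for II (3 of 4), -0.55 for III (8 of 8), -0.35 for IV (11 of 12) and -0.49 for V (17 of 17). In 63 members the change was below 0 in liver and above 0 in MEFs. In 35 members (against 6.09% of all genes) the groups also did not overlap in either tissue. The tissues share no library, but their tables were normalized separately, and the levels themselves were never compared across them.

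**Figure D4:**
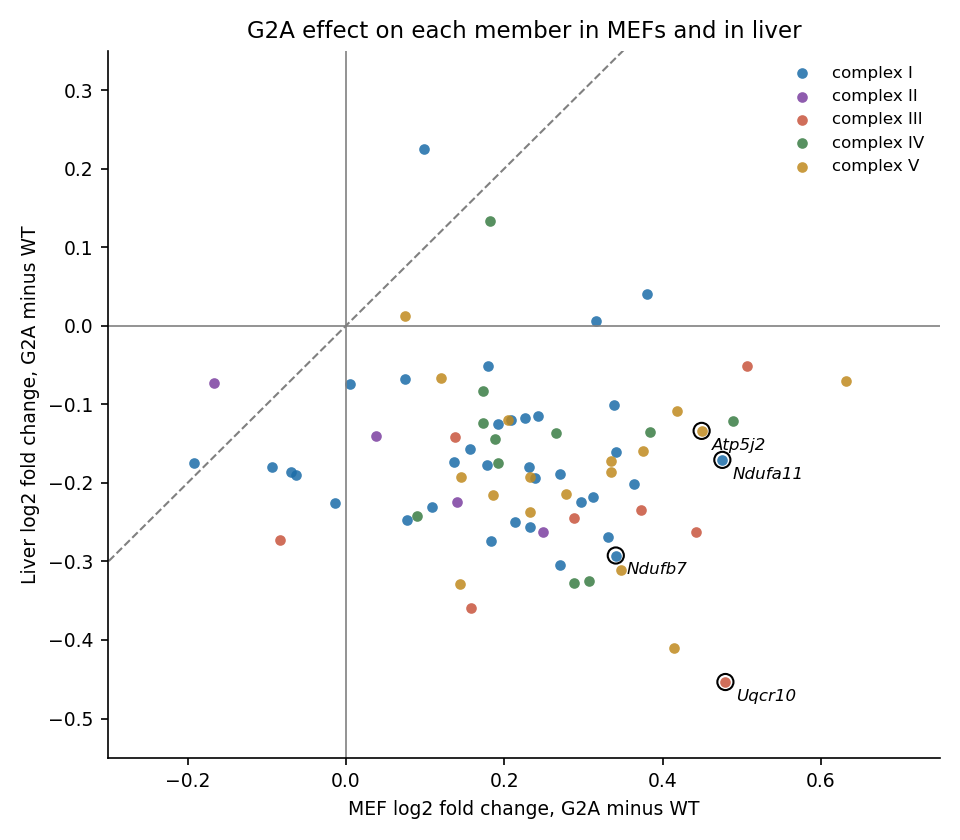
Log2 fold change, G2A minus WT, of each member in MEFs (horizontal) and in liver (vertical), coloured by complex; on the dashed diagonal both are equal, circles mark the 4 members called in the difference below 0, and Cox6a2 (-2.83 in MEFs, 1.85 in liver) lies outside the axes. Most of the 76 members sit at the lower right, below 0 in liver and above 0 in MEFs, where 63 are counted.

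At an adjusted p under 0.05, 4 members were called below 0, against 0.869% of all genes, and 1 above, against 1.34%. At an unadjusted p under 0.05 there were 47 below 0, against 12.1% of all genes. Uqcr10 had a difference of -0.93 (SE 0.18, 95% interval -1.34 to -0.52, adjusted p = 0.0470): it was at 2008 and 2183 normalized reads in G2A MEFs against 1345, 1414 and 1780.0 in WT MEFs, with the liver values above. Ndufa11 had a difference of -0.65 (SE 0.11, interval -0.90 to -0.39, adjusted p = 0.0361), with 22.6, 22.8 and 21.7 FPKM in G2A livers against 25.6, 25.1 and 25.1 FPKM in WT livers. Both genes were without overlap in both tissues, in opposite directions.

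Ndufb7, an accessory subunit of the membrane arm of complex I, had a difference of -0.63 (SE 0.13, interval -0.93 to -0.33, adjusted p = 0.0486). It was at 221, 211 and 247 FPKM in G2A livers against 279, 271 and 280.4 FPKM in WT livers, and at 2747 and 2759.6 normalized reads in G2A MEFs against 2113, 2373 and 2049 in WT MEFs. Atp5j2 had a difference of -0.58 (SE 0.11, interval -0.83 to -0.33, adjusted p = 0.0382), with 645, 615 and 642 FPKM in G2A livers against 744, 686 and 659.6 FPKM in WT livers. Neither overlapped in either tissue. Cox6a2 was the member above 0, at 4.68 (interval 2.55 to 6.80, adjusted p = 0.0404); without G2A liver 1, the liver with high muscle markers, it was 3.72 (adjusted p = 0.0546). Ndufv1 had a test statistic larger in size than that of Ndufb7 (-4.82 against -4.78) but was not called, at -0.53 (SE 0.11, adjusted p = 0.0576).

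These calls rested on few libraries. No member was called without G2A liver 1, G2A liver 2, WT liver 2, WT liver 3, G2A MEF library 1, G2A MEF library 2 or WT MEF library 1, 1 was called without WT liver 1 (1.48% of all genes), and 7 without WT MEF library 2 (4.58% of all genes). Without G2A liver 3 there were 20 calls (26.3% of the members, against 8.76% of all genes), and without WT MEF library 3 there were 48 (63.2%, against 30.1%). The difference of Uqcr10 lay between -0.99 and -0.85 over the omissions that lost its call, and that of Ndufa11 between -0.66 and -0.64.

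**Figure D5:**
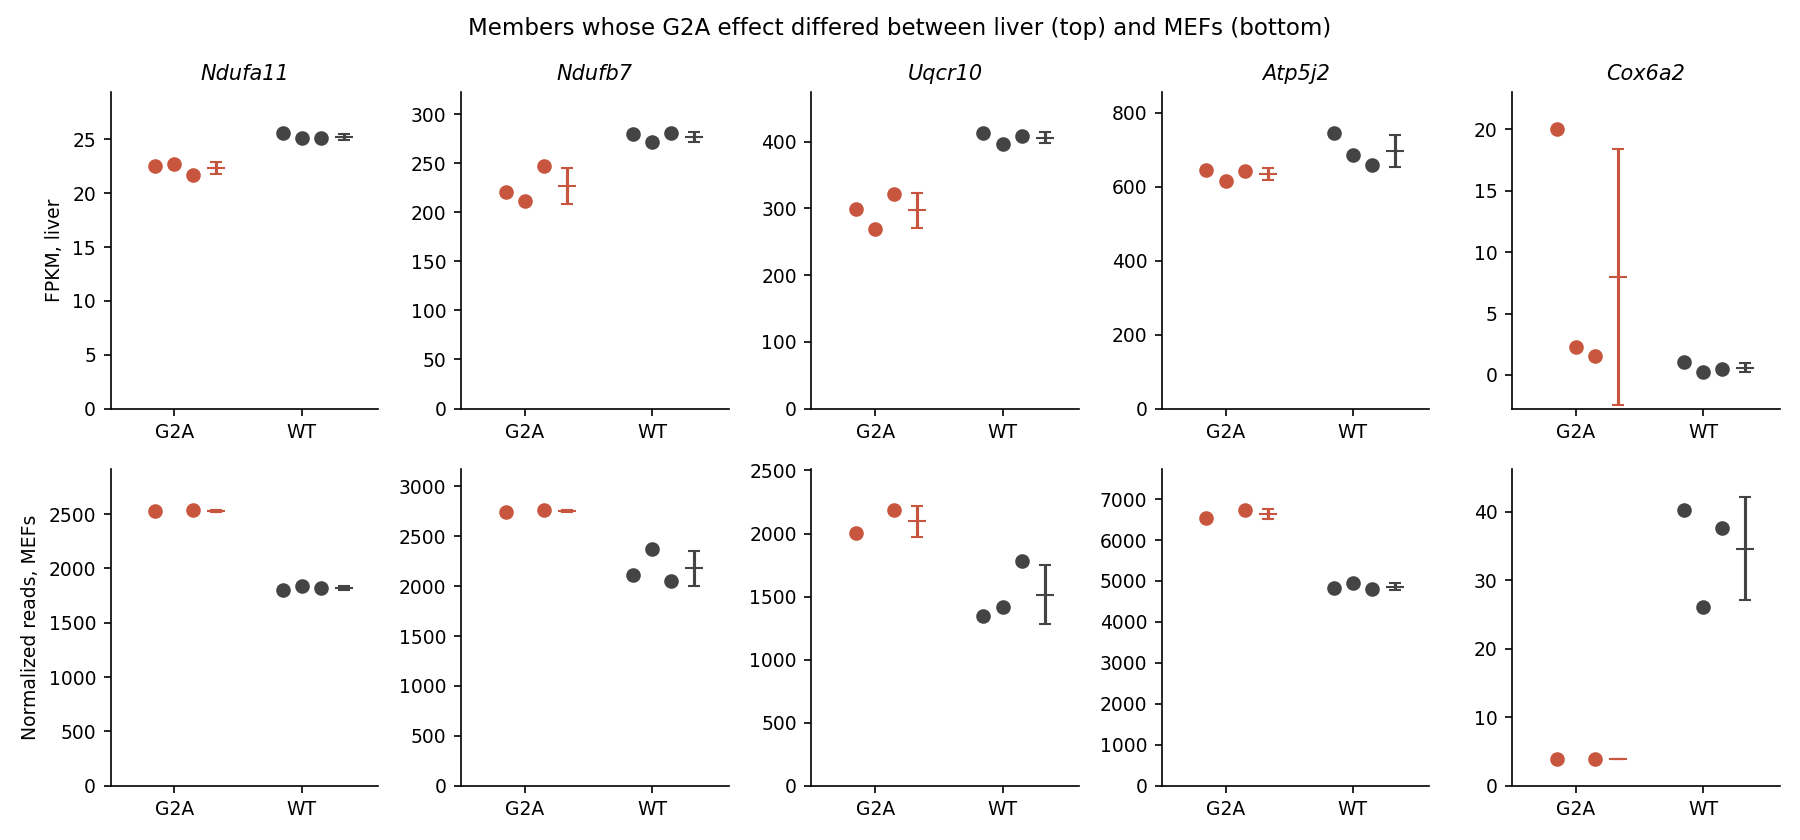
Level of the 5 members called in the difference of effects, in FPKM for each liver (top) and normalized reads for each MEF library (bottom), with G2A left and WT right and the mean ± SD beside the points (n = 3 livers each, 2 G2A and 3 WT MEF libraries). Ndufa11, Ndufb7, Uqcr10 and Atp5j2 are lower in G2A livers and higher in G2A MEFs, without overlap; Cox6a2 runs the other way.

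As background, promoters of respiratory chain genes are known for sites of nuclear respiratory factor 1 (NRF1), of ETS factors such as GABP, and of YY1. RefSeq promoters of build GRCm38.p6, from 250 bases before to 50 bases after a start, were matched for 69 of the 85 members, 3 of them through a newer symbol, giving 75 promoters. The 4 members called below 0 in the difference of effects are shown 5′ to 3′ on the strand of the gene, with matches to the searched motifs in capitals. Ndufa11 is at chr17:56717512-56717811 on the plus strand, Ndufb7 at chr8:83566508-83566807 on the plus strand, Uqcr10 at chr11:4704295-4704594 on the minus strand and Atp5j2 at chr5:145191492-145191791 on the minus strand.
Ndufa11: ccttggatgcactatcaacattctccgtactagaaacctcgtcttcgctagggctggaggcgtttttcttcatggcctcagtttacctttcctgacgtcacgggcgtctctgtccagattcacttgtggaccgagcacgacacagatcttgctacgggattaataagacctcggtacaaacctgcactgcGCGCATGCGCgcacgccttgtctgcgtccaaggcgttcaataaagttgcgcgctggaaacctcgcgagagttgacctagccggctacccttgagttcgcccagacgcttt
Ndufb7: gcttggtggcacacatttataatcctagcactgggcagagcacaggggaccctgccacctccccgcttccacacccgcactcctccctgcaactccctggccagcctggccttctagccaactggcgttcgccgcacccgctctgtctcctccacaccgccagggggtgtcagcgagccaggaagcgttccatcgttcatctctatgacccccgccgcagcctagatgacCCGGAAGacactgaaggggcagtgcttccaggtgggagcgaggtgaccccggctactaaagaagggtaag
Uqcr10: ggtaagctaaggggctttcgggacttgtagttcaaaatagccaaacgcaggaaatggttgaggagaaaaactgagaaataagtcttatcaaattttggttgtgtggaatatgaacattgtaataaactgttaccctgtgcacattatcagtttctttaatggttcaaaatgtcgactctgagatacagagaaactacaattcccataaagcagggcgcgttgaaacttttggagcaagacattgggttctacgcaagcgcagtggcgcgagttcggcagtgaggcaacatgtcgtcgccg
Atp5j2: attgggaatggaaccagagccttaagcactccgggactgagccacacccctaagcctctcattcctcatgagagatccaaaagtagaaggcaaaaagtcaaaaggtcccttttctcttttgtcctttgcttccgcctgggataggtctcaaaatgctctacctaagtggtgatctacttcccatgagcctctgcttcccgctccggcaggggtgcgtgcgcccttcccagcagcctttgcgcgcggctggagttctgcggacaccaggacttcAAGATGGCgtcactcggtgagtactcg

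The capitals mark in Ndufa11 the NRF1 motif GCGCATGC and its overlapping reverse complement, from 60 bases before the start, in Ndufb7 the ETS motif CCGGAAG, 20 bases before the start, and in Atp5j2 the YY1 motif AAGATGGC, 24 bases after the start. Uqcr10 held none of the 5 motifs searched, which says only that these letters are not in this window. The motifs were searched on both strands as exact letters. GCGCATGC was in 10 of the 75 member promoters (13.3%), against 2.71% of all 32851 promoters of the table. CCGGAAG was in 16 (21.3%, against 8.86%) and AAGATGGC in 12 (16%, against 2.75%). AAGATGGC was in 7 of the 34 promoters of complex I and 5 of the 20 of complex V. It was in 0 of the 3 of complex II, 0 of the 5 of complex III and 0 of the 13 of complex IV. TCAAGGTCA, of estrogen-related receptors, was in 2 (2.67%, against 0.423%). ACGTG, the core of the hypoxia-inducible factor site, was in 21 (28%, against 19.6%). No promoter of Cox4i2 or Ndufa4l2 was at hand.

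Genes beyond the symbol rule gave a wider view of mitochondria. The 5 nuclear subunits that the rule leaves out were below 0 in liver in 5 of 5 (median -0.23) and above 0 in MEFs in 5 of 5 (median 0.33). Cyc1, cytochrome c1 of complex III, was at 143 ± 13.6 FPKM in G2A livers and 185 ± 8.13 FPKM in WT livers (SD, n = 3 each, adjusted p = 0.105). Usmg5, a small ATP synthase subunit, was at 4355 ± 11.7 normalized reads in G2A MEFs (n = 2) and 2986 ± 164 in WT MEFs (n = 3, adjusted p = 0.269). Of the enzymes of the tricarboxylic acid cycle, 14 of 14 were below 0 in liver (median -0.19) and 12 of 14 above 0 in MEFs (median 0.36). Mdh2, the malate dehydrogenase of the cycle, was at 250.7 ± 16.7 FPKM in G2A livers and 304 ± 10.9 FPKM in WT livers, and at 16775 ± 354 normalized reads in G2A MEFs (n = 2) and 11671 ± 1109 in WT MEFs (n = 3), without overlap in either tissue.

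Assembly factors were below 0 in liver in 27 of 30 (median -0.12) and above 0 in MEFs in 34 of 42 (median 0.21). Cox19, which helps to assemble complex IV, was at 40.6 ± 2.69 FPKM in G2A livers and 52.9 ± 1.36 FPKM in WT livers (adjusted p = 0.0902). Import components, porins, carriers and chaperones were below 0 in liver in 20 of 24 (median -0.19) and above 0 in MEFs in 22 of 24 (median 0.23). Among these, Phb, a scaffold of the inner membrane, was at 100.05 ± 2.07 FPKM in G2A livers and 122 ± 7.03 FPKM in WT livers, and at 7469 ± 197 normalized reads in G2A MEFs (n = 2) and 5103 ± 871 in WT MEFs (n = 3). No gene of these lists passed limma's test at an adjusted p under 0.05.

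Pyruvate dehydrogenase genes and transcriptional regulators were more mixed. Of the pyruvate dehydrogenase subunits, kinases and phosphatases, 5 of 9 were below 0 in liver (median -0.05) and 6 of 10 below 0 in MEFs (median -0.17). Of the transcriptional regulators of mitochondrial genes, 10 of 13 were below 0 in liver (median -0.07) and 10 of 13 above 0 in MEFs (median 0.05). The pyruvate dehydrogenase subunits Pdha1, Pdhb, Dlat and Pdhx all had liver fold changes below 0, at -0.16, -0.19, -0.14 and -0.33 on the log2 scale. Nrf1, which encodes NRF1, was at 24.8 ± 1.80 FPKM in G2A livers and 28.6 ± 1.40 FPKM in WT livers, without overlap (log2 fold change -0.20, adjusted p = 0.189). Esrra, which encodes an estrogen-related receptor, was at 512 ± 69.5 normalized reads in G2A MEFs (n = 2) and 599 ± 13.7 in WT MEFs (n = 3), a log2 fold change of -0.23 (adjusted p = 0.538).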

How the data were processed

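Per the labels' protocols, total RNA was extracted with Trizol and sequenced at BGI, with trimming of reads to 50 bp before TopHat 2.1.1 placed them on mm9. Cufflinks 2.2.1 and mm10 are also named, per the submitters' processing notes. The annotation and the counting method, strand included, were not given in the sources used here. The liver values deposited by the authors carry no unit in their header and were read as FPKM from the tool named and their fractional values. The MEF table was deposited as a signal in normalized reads: each value was a whole number of reads, within 0.01, divided by 1 size factor per library, so whole reads were recovered. Of 12 labelled samples, 11 libraries had values.

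Members were matched by symbol. The members and lists were chosen with earlier results of these data known. Genes with an FPKM of at least 1 in at least 3 livers, or at least 10 normalized reads in at least 2 MEF libraries, were tested on log2(value + 1) with limma 3.58.1 (R 4.3.3, variance trend) and Benjamini-Hochberg adjustment over all genes tested. Fold changes on that scale understate low genes. The difference of effects used both fits with Satterthwaite degrees of freedom. Alternatives included edgeR 4.0.16 (quasi-likelihood) and DESeq2 1.42.0 on the recovered reads. On simulated data the liver fit recovered 91% of changes of 1 on the log2 scale, the MEF fit 30% and the difference 54.3%. False calls numbered 8 in the liver fit, 6 in the MEF fit and 28 in the difference. For MEFs edgeR recovered 9% of changes of that size, with 8 false calls. Recovery of smaller changes, such as the members' medians of -0.17 in liver and 0.23 in MEFs, was not tested. The named genes were those with the smallest p of each complex, the isoform genes of each subunit, the 5 largest differences by test statistic, Psmc1 and up to 2 genes of each context list; the other members were added for their role after their values were seen.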

Additional observations from a re-analysis of the deposited data

Results flagged for a closer look

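The effect of G2A differed between liver and MEFs, by the test of the difference itself, in 5 members. The difference, liver minus MEF on the log2 scale, was -0.65 for Ndufa11, -0.58 for Atp5j2, -0.93 for Uqcr10 and -0.63 for Ndufb7, each lower in G2A livers and higher in G2A MEFs than in WT. It was 4.68 (4.675) for Cox6a2, which was higher in G2A livers and lower in G2A MEFs. Within a tissue limma called none of these 5 genes, while DESeq2 on the MEF reads called Atp5j2 and Ndufa11 higher and Cox6a2 lower, and WT MEF library 3 and G2A liver 3 lay away from their groups, as did the muscle markers of G2A liver 1.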

How the results depend on the processing

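Call counts depended on library weighting and on single libraries. The members' medians kept their sign under every alternative run, but 2 complex medians did not: complex IV in liver was 0.01 under quantile normalization, and complex II in MEFs -0.02 without WT MEF library 3, where Atp5b also turned to -0.05. Library weights gave 45 members lower (20.7% of all genes) and 6 higher (26.1%) in liver, 4 lower (22.5%) and 35 higher (23.8%) in MEFs, and 59 (56.9%) in the difference of effects. Leaving out 1 library gave 0 to 28 lower and 0 to 4 higher in liver, 0 to 2 lower and 0 to 12 higher in MEFs, and 0 to 48 in the difference, with the extremes without G2A liver 3 and WT MEF library 3. DESeq2 gave 1 lower and 10 higher in MEFs. The difference had 3 calls under quantile normalization and 0 with no variance trend. The share of all genes called under these settings is not given here, so these counts are no result about the members. Quantile normalization took the liver median to -0.06 (-0.064) and the members below every WT liver to 28. The cause was not tested. Deviations of same-numbered samples from their group means had correlations of 0.18, -0.099 and 0.099 in liver, and 0.13 and -0.033 in MEFs. With 3 livers per group, and 2 G2A MEF libraries that mirror each other around their mean, these values cannot tell whether the numbers mark pairs. With the number as a replicate block, liver had 0 calls. MEFs had 2 lower (2.63% of the members, against 13.7% of all genes) and 13 higher (17.1%, against 14.3%). The difference had 41 (53.9%, against 34.1%). WT MEF library 3 has no partner in that block and drops out. Of the named members' recomputed values, 295 stayed on their side of the threshold, 51 passed it and 38 lost it. Unknown read depth limits the liver values, and 2 libraries the G2A MEF group.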
